A study of Homo sapiens with 12 samples.

Results

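Clade B serpins were followed through 6 groups of pancreatic cancer cells that carried a mock control or one of 2 forms of the transcription factor p63. The 10 members were taken by gene symbol: SERPINB1, SERPINB2, SERPINB3, SERPINB4, SERPINB5 (maspin), SERPINB6, SERPINB7, SERPINB8, SERPINB9 and SERPINB13. All 10 were found among the 39099 genes that the transcript rows summed to. Of these members, 5 reached 1 TPM (transcript abundance relative to a fixed total of 1000000) in 2 or more libraries and were tested along with 14767 genes in all. The other 5 never reached 1 TPM.

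Serpins are protease inhibitors that offer a reactive loop as bait, and a protease that cuts the loop is dragged across the serpin and trapped in a covalent complex. Clade B is the branch without a classical secretion signal, so that most members act inside the cell that makes them, against granule proteases, lysosomal cathepsins or furin. Maspin is an exception that does not trap proteases, and it is known as an epithelial protein, as a target of the p53 family and as a marker of pancreatic ductal cancer.

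AsPC-1 and PANC-1, both established lines from human pancreatic adenocarcinoma, were compared by poly(A) RNA-seq. Each line was given a mock control, TAp63, the form with the N-terminal transactivation domain, or deltaNp63, the form that starts at an internal promoter and lacks that domain. The groups were therefore AsPC-1 mock, AsPC-1 TAp63, AsPC-1 deltaNp63, PANC-1 mock, PANC-1 TAp63 and PANC-1 deltaNp63, each with 2 biological replicates per the labels. The vector, the p63 splice form and the time after delivery are not given in the sources used here, and bulk RNA cannot tell fewer expressing cells from less RNA in each cell.

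Values were TPM, which keeps no read depth, so the spread between replicates alone set the precision. A library held between 12212 and 13161 genes at 1 TPM or more. TP63 itself was at 0.958 ± 0.199 TPM (SD, n = 2) in AsPC-1 mock and 0.0719 ± 0.067 TPM in PANC-1 mock, and it rose with each construct by log2 differences between 6.09 and 9.84, the highest limma adjusted p being 7.47e-06. The 5 epithelial markers (EPCAM, KRT8, KRT18, KRT19, CDH1) summed to between 7131 and 10554 TPM in AsPC-1 and between 3483 and 3851 TPM in PANC-1. The 5 leukocyte markers summed to between 91.0 and 126 TPM (CD68 alone between 90.8 and 126 TPM) in AsPC-1 and between 255 and 288 TPM in PANC-1. PTPRC, the pan-leukocyte marker, stayed at or below 0.0102 TPM in all 12 libraries, and the endothelial markers VWF and CDH5 summed to at most 0.278 TPM. Of the 3 fibroblast markers, LUM ranged from 177 to 288 TPM in AsPC-1 and was at or below 0.0523 TPM in PANC-1. COL1A1 ran the other way, at or below 0.383 TPM in AsPC-1 and from 80.8 to 111 TPM in PANC-1, and DCN was at or below 0.998 TPM in all 12 libraries. The part of these marker differences in the gaps between the lines was not tested. One library stood apart from its line: AsPC-1 deltaNp63 replicate 1 lay a median of 0.221 log2 units per gene from the median of its line, against 0.109 to 0.162 for the other AsPC-1 libraries. Results that rest on it are given with and without it.

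Of the 10 members, 7 lie in the serpin cluster of chromosome 18 and 3 in that of chromosome 6 (GENCODE 44 on hg38). SERPINB5 (ENSG00000206075) opens the chromosome 18 cluster at chr18:63476958-63505085 on the plus strand, and SERPINB8 (ENSG00000166401) closes it at chr18:63970029-64019779 on the same strand. On chromosome 6 the order is SERPINB1 (ENSG00000021355, chr6:2832332-2841959), SERPINB9 (ENSG00000170542, chr6:2887270-2903309) and SERPINB6 (ENSG00000124570, chr6:2948159-2972165), all on the minus strand. The sequence before the start of SERPINB5 and of SERPINB8 is printed here because these were the members whose values with a construct lay apart from mock in AsPC-1. Both are the 250 bases before the RefSeq start on GRCh38.p14, read 5′ to 3′ on the plus strand, with p53-family half-sites in capitals. SERPINB5 covers chr18:63476708-63476957 and SERPINB8 covers chr18:63969831-63970080.
SERPINB5: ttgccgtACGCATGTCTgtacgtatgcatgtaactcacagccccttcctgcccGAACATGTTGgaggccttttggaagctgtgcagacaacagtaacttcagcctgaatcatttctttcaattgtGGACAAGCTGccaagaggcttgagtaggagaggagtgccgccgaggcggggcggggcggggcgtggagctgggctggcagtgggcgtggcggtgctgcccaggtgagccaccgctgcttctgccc
SERPINB8: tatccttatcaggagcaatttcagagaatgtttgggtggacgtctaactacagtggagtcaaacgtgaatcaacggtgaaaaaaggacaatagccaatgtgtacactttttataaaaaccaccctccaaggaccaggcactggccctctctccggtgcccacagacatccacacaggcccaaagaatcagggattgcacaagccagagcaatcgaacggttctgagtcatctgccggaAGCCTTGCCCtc

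A half-site here is the p53-family decamer, which reads the same on both strands, with its core kept (C, then A or T at both next positions, then G) and at most 1 mismatch outside it. The SERPINB5 sequence held 3 such decamers, ACGCATGTCT, GAACATGTTG and GGACAAGCTG, which began 243, 197 and 125 bases before the start. SERPINB8 held AGCCTTGCCC, which began 12 bases before its start. None of the 4 was free of a mismatch. Among the 10 members, SERPINB2 also held half-sites, 3 as in SERPINB5, and the windows of the other 7 held none. A half-site of this kind occurred in 32.6% of 35116 RefSeq promoter windows of 300 bases, and 1.17% of them held 3 or more. These matches are letters in a window, and binding was not measured.

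Levels split the family by place. Of the 10 clade B genes in the chromosome 18 cluster, the outermost pair, SERPINB5 and SERPINB8, were the only ones ever above 1 TPM, and the 8 inner genes stayed at or below 0.212 TPM. Those 8 include SERPINB10, SERPINB11 and SERPINB12, which are not members. All 3 genes of the chromosome 6 cluster were above 1 TPM in all 12 libraries. SERPINB3 and SERPINB4, the squamous cell carcinoma antigens, and SERPINB13, a keratinocyte inhibitor of cathepsins, were listed at 0 in all 12 libraries. SERPINB2, the urokinase inhibitor known as plasminogen activator inhibitor type 2, was listed at 0 in 10 libraries and reached at most 0.0858 TPM. SERPINB7, known as megsin and mutated in a form of palmoplantar keratoderma, was listed at 0 in 3 libraries and reached at most 0.212 TPM. Neither construct brought any of these 5 genes to 1 TPM in either line.

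SERPINB3 and SERPINB4 share 1118 of 1174 aligned coding positions (95.2%), so a quantifier could divide their reads, but both were at 0. Among the other pairs of members, coding identity ran from 57.9% (SERPINB2 and SERPINB5) to 74.6% (SERPINB8 and SERPINB9).

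Summed over all its transcripts, SERPINB1, an inhibitor of neutrophil elastase, proteinase 3 and cathepsin G, was the most abundant member in AsPC-1. In AsPC-1 its replicates were at 223 and 258 TPM with mock, 266 and 248 TPM with TAp63, and 401 and 249.9 TPM with deltaNp63. In PANC-1 they were at 50.5 and 44.95 TPM with mock, 42.1 and 41.3 TPM with TAp63, and 40.4 and 44.9 TPM with deltaNp63. Every AsPC-1 value was above every PANC-1 value, and within AsPC-1 the first deltaNp63 replicate was alone above the rest.

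SERPINB5 was close to an on/off gene between the lines. In AsPC-1 its replicates were at 97.6 and 88.6 TPM with mock, 75.1 and 69.5 TPM with TAp63, and 83.5 and 78.4 TPM with deltaNp63. In PANC-1 they were at 0.0161 and 0.00243 TPM with mock, 0.0756 and 0.348 TPM with TAp63, and 0.0324 TPM and listed at 0 with deltaNp63. Both mock values in AsPC-1 were above all 4 values with a construct, and no PANC-1 library came near any AsPC-1 library. Nearly all of the AsPC-1 signal was the full coding transcript SERPINB5-201 (between 97.3% and 98.6% in its 6 libraries). A pseudogene, ATP5MC1P6, lies inside SERPINB5 on the same strand and was at or below 0.537 TPM.

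SERPINB6, a broadly made inhibitor of cathepsin G that is needed for hearing, was the most even member. In AsPC-1 its replicates were at 105 and 94.5 TPM with mock, 101 and 89.5 TPM with TAp63, and 90.1 and 104 TPM with deltaNp63. In PANC-1 they were at 136 and 122 TPM with mock, 116 and 117 TPM with TAp63, and 129.5 and 125 TPM with deltaNp63. All 6 PANC-1 values were above all 6 AsPC-1 values. The table held 5 of the 25 transcripts that GENCODE 44 gives this gene, so its sum may be incomplete.

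SERPINB8, an inhibitor of furin, was at 34.9 and 46.1 TPM with mock, 58.5 and 53.4 TPM with TAp63, and 82.2 and 52.1 TPM with deltaNp63 in AsPC-1. In PANC-1 its replicates were at 9.24 and 11.8 TPM with mock, 10.8 and 8.17 TPM with TAp63, and 9.55 and 11.4 TPM with deltaNp63. In AsPC-1 the 4 values with a construct were all above both mock values. In PANC-1 the mock values overlapped those with either construct. HMSD overlaps SERPINB8 on the same strand, was listed at 0 in AsPC-1 and reached between 4.01 and 10.9 TPM in PANC-1, so in PANC-1 part of one gene's signal could belong to the other.

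SERPINB9, the granzyme B inhibitor that protects cytotoxic lymphocytes and some tumour cells, was at 43.9 and 52.7 TPM with mock, 47.9 and 46.2 TPM with TAp63, and 56.4 and 42.9 TPM with deltaNp63 in AsPC-1. In PANC-1 it was at 5.80 and 5.41 TPM with mock, 5.27 and 5.07 TPM with TAp63, and 4.85 and 6.50 TPM with deltaNp63. The lines were far apart, and in AsPC-1 the 3 groups overlapped.

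**Figure D1:**
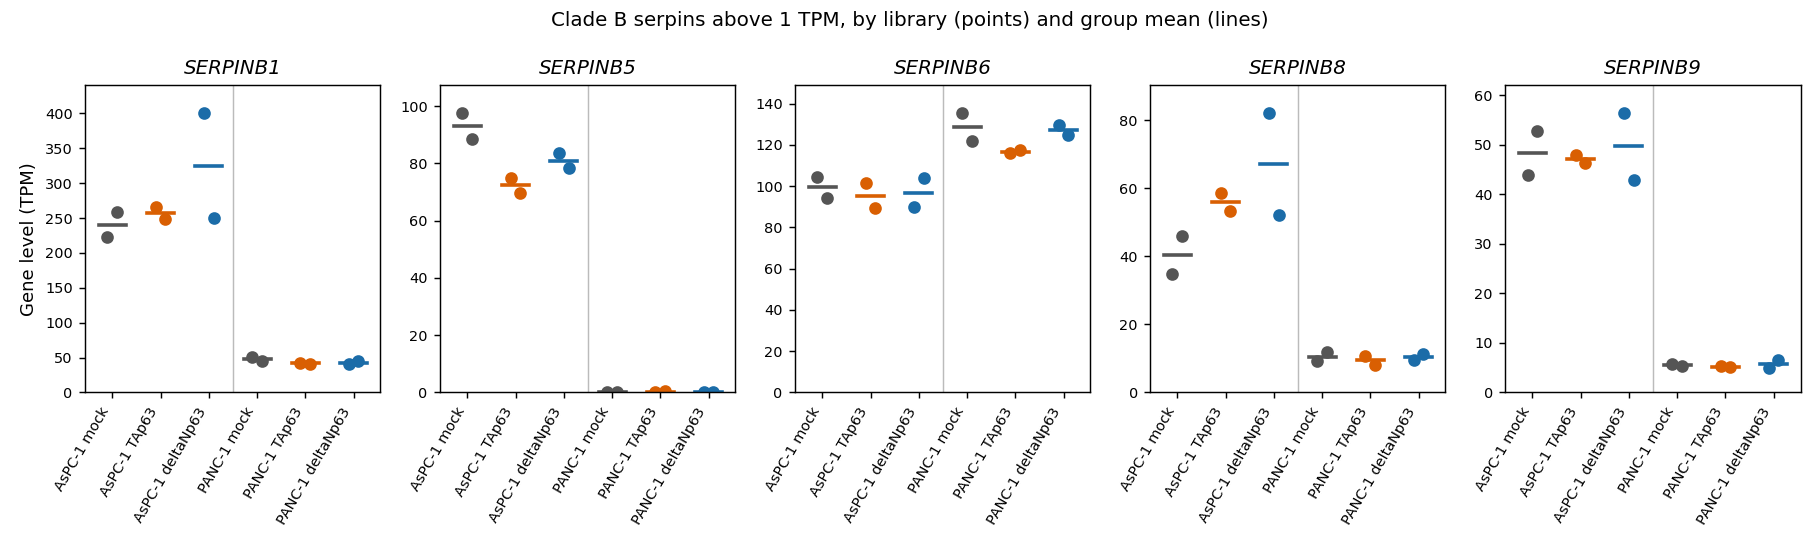
Level in TPM (vertical axis, linear from 0) of the 5 clade B serpins above 1 TPM, with a panel for each gene, a point for each of the 12 libraries and a line for the mean of the 2 replicates. SERPINB1, SERPINB5, SERPINB8 and SERPINB9 are higher in AsPC-1, SERPINB6 is slightly higher in PANC-1, and the AsPC-1 deltaNp63 replicates are far apart for SERPINB1 (401 and 249.9 TPM).

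TPM is scaled by transcript length, so levels can be ordered between genes. In AsPC-1 mock the order of means was SERPINB1 (241 ± 24.6 TPM, SD, n = 2), SERPINB6 (99.6 ± 7.18), SERPINB5 (93.1 ± 6.39), SERPINB9 (48.3 ± 6.22) and SERPINB8 (40.5 ± 7.94). The ranges of SERPINB6 and SERPINB5 overlapped, as did those of SERPINB9 and SERPINB8. With TAp63 the 5 genes no longer overlapped, and SERPINB8 (56.0 ± 3.60 TPM) stood above SERPINB9 (47.1 ± 1.20 TPM). With deltaNp63 the ranges of SERPINB5, SERPINB8 and SERPINB9 overlapped each neighbour in turn. In PANC-1 the order was SERPINB6, SERPINB1, SERPINB8 and SERPINB9 in all 3 groups, with no overlap between neighbours. Summed over the members, clade B RNA came to between 504 and 713 TPM in AsPC-1 and between 172 and 201 TPM in PANC-1. SERPINB1 made up between 44.3% and 56.2% of that sum in AsPC-1, and SERPINB6 between 66.2% and 70.2% in PANC-1. These levels count all transcripts of a gene. On coding transcripts alone the AsPC-1 mock means were 99.6 TPM for SERPINB6, 91.8 TPM for SERPINB5 and 73.9 TPM for SERPINB1. SERPINB1 was then also below SERPINB6 with TAp63 (82.7 against 95.4 TPM). With deltaNp63 its mean was above that of SERPINB6 (100.5 ± 39.1 against 96.9 ± 9.68 TPM), its replicates being at 128 and 72.9 TPM. All 5 SERPINB6 transcripts in the table were coding, so its sum could lose nothing. The coding levels of SERPINB6 and SERPINB1 are therefore not compared like for like.

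**Figure D2:**
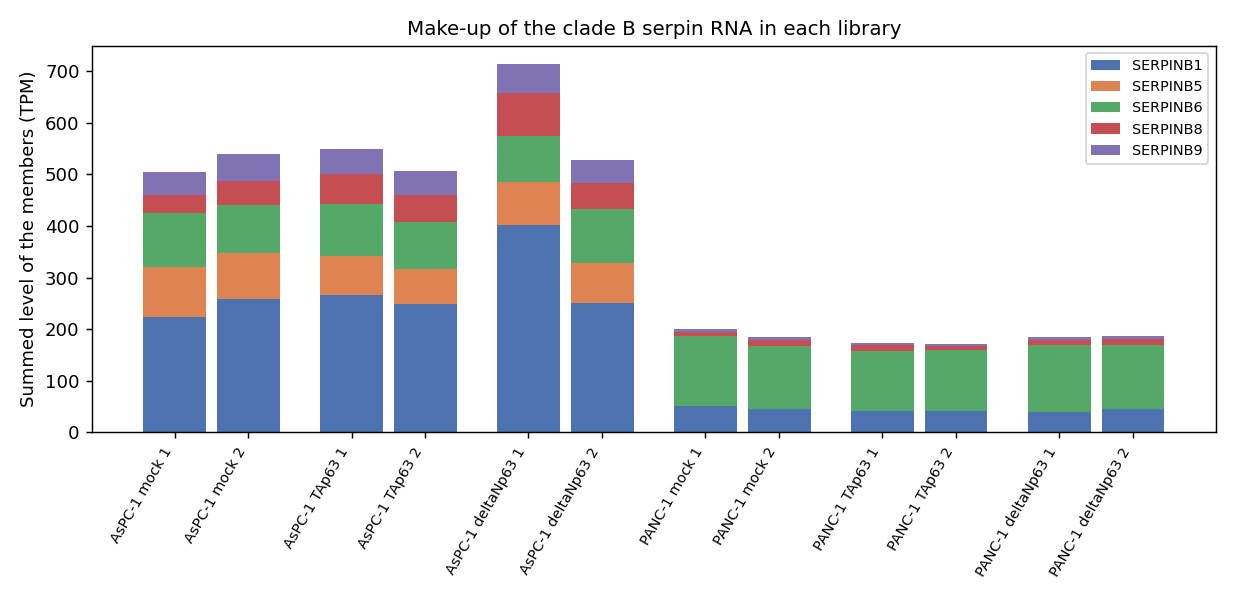
Summed TPM of the 5 expressed members (vertical axis, from 0) in each of the 12 libraries, stacked by gene. SERPINB1 is the largest block in every AsPC-1 library and SERPINB6 in every PANC-1 library, and AsPC-1 deltaNp63 replicate 1 has the tallest bar, at 713 TPM.

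The baseline of the lines was compared first, PANC-1 mock against AsPC-1 mock. All 5 tested members differed, 4 lower and 1 higher in PANC-1, where 72.5% of all tested genes passed in either direction, 27.9% lower and 44.6% higher. With so many genes differing, the count by itself sets the members little apart from other genes. Differences here and below are on the log2(TPM + 1) scale, which understates the change of low genes. SERPINB5 had a log2 difference of -6.54, lower in PANC-1 (SE 0.125, limma adjusted p 6.21e-11), a value that the pseudocount limits: with 0.1 in place of 1 it was -9.74. SERPINB9 differed by -2.90 (SE 0.158, limma adjusted p 8.25e-08), SERPINB1 by -2.31 (SE 0.181, limma adjusted p 1.34e-06) and SERPINB8 by -1.84 (SE 0.226, limma adjusted p 3.68e-05). SERPINB6 was the 1 member higher in PANC-1, with a difference of 0.37 (SE 0.1, limma adjusted p 0.00745), close to the median of 0.24 over all tested genes. That call was lost with each library centred on its median (0.19, limma adjusted p 0.102). It was also lost without AsPC-1 mock replicate 2 (0.29, limma adjusted p 0.0616) and without PANC-1 mock replicate 1 (0.29, limma adjusted p 0.0653).

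TAp63 against mock in AsPC-1 gave no member that passed: 0 of 5 by limma at an adjusted p under 0.05, against 0.637% of all tested genes. At an unadjusted p under 0.05 there was 1 member (15.1% of all tested genes), and 2 had groups that did not overlap (46.6%). SERPINB5 was lower by a log2 difference of -0.36 (95% interval -0.64 to -0.081, limma p 0.0168 unadjusted and 0.222 adjusted), with both TAp63 values below both mock values. SERPINB8 was higher by 0.47 (95% interval -0.037 to 0.97, limma adjusted p 0.368), with both TAp63 values above both mock values. Without AsPC-1 mock replicate 1 the SERPINB8 difference was 0.27 (limma adjusted p 0.819), and with each library centred on its median the SERPINB5 difference was -0.23 (limma adjusted p 0.501). SERPINB1 differed by 0.10 (95% interval -0.31 to 0.50), SERPINB6 by -0.062 (-0.29 to 0.16) and SERPINB9 by -0.031 (-0.38 to 0.32), each with overlapping groups. The median over all tested genes was -0.076, and relative to it SERPINB8 was at 0.54 and SERPINB5 at -0.28.

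DeltaNp63 against mock in AsPC-1, which uses the same mock libraries, again gave 0 of 5 members by limma, where 7.14% of all tested genes passed. One member passed an unadjusted p under 0.05 (29.7% of all tested genes), and 2 had groups that did not overlap (52.1%). That member was SERPINB8, at a log2 difference of 0.69 (95% interval 0.19 to 1.20, limma p 0.0123 unadjusted and 0.0799 adjusted). SERPINB1 differed by 0.40 (95% interval -0.0084 to 0.80, limma adjusted p 0.176) and its groups overlapped. SERPINB5 differed by -0.20 (95% interval -0.48 to 0.081, limma adjusted p 0.324), with both deltaNp63 values below both mock values. SERPINB6 differed by -0.040 (95% interval -0.26 to 0.18) and SERPINB9 by 0.030 (-0.32 to 0.38). The median over all tested genes was -0.12, and the fitted SERPINB5 difference was 0.0084 once each library was centred on its median. Relative to the median over all tested genes, SERPINB8 was at 0.81 and SERPINB5 at -0.080.

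The library that stood apart decided the SERPINB1 and SERPINB8 values. Without AsPC-1 deltaNp63 replicate 1, SERPINB8 differed from mock by 0.37 (limma adjusted p 0.441) and SERPINB1 by 0.058 (limma adjusted p 0.876). Without replicate 2 instead, so that the library standing apart was the only deltaNp63 library, SERPINB8 differed by 1.02 (limma adjusted p 0.00941) and SERPINB1 by 0.74 (limma adjusted p 0.00286), and 2 members passed. In that fit the lone library is assumed to vary like the other groups. SERPINB5 moved less, from -0.27 to -0.13 over all fits that left out 1 library.

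**Figure D3:**
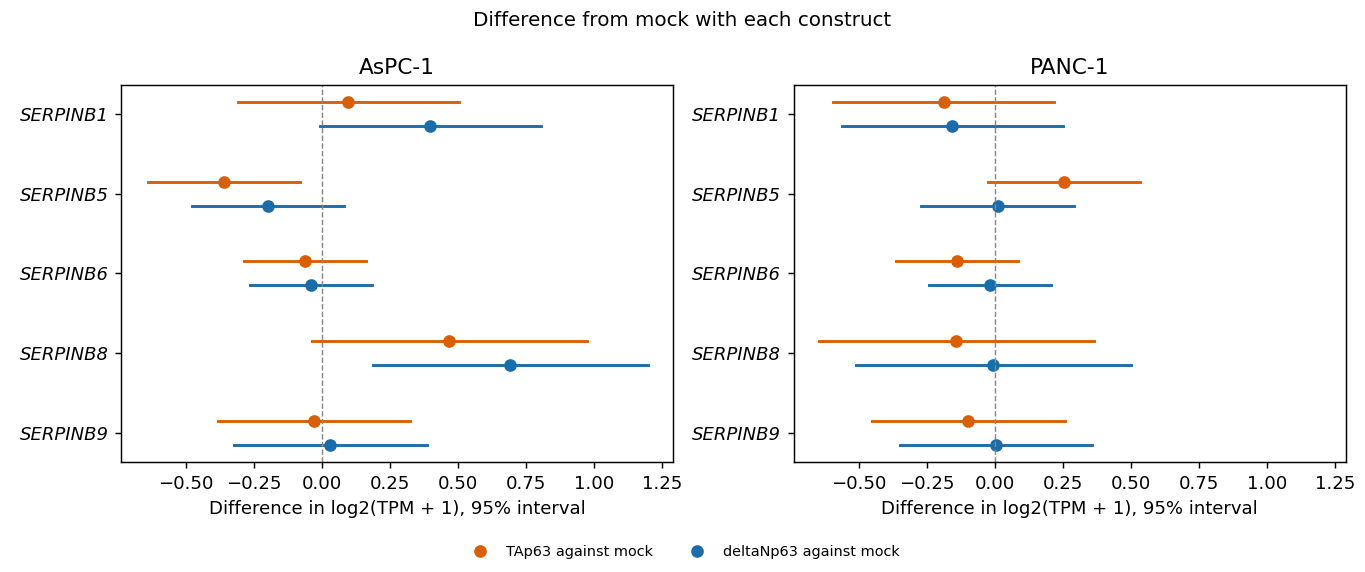
Difference from mock in log2(TPM + 1) for each tested member (horizontal axis), with points for TAp63 and deltaNp63 and bars for the 95% interval from limma, AsPC-1 on the left and PANC-1 on the right. In AsPC-1 the SERPINB8 points lie at 0.47 and 0.69 and the SERPINB5 points at -0.36 and -0.20, while in PANC-1 every bar crosses 0.

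TAp63 and deltaNp63 were then compared with each other, at the unequal mean TP63 levels given above. In AsPC-1, 0 of 5 members passed by limma (0.0203% of all tested genes did), and 0 had an unadjusted p under 0.05 (7.92%). SERPINB5 was the 1 member whose groups did not overlap (29.5% of all tested genes), lower with TAp63 by a log2 difference of -0.16 (95% interval -0.44 to 0.12, limma adjusted p 0.718). SERPINB1 differed by -0.30 (95% interval -0.71 to 0.10, limma adjusted p 0.663) and SERPINB8 by -0.22 (-0.73 to 0.28, limma adjusted p 0.789). Without AsPC-1 deltaNp63 replicate 1 these became 0.039 for SERPINB1 and 0.10 for SERPINB8, and without replicate 2 SERPINB1 was at -0.64 (limma adjusted p 0.0208).

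In PANC-1 the members stayed near their mock levels. With TAp63, 0 of 5 members passed by limma (0.00677% of all tested genes did), 0 had an unadjusted p under 0.05 (3.41%), and 4 had groups that did not overlap (42.4%). SERPINB5 differed by 0.25 (95% interval -0.025 to 0.53, limma adjusted p 1), both TAp63 values being above both mock values and all 4 below 1 TPM. With the smaller pseudocount of 0.1 its difference was 1.36, and with quantile normalization 0.13. It was 0.092 without PANC-1 TAp63 replicate 2, the library at 0.348 TPM, and 0.42 without replicate 1. SERPINB1 differed by -0.19 (95% interval -0.59 to 0.22) and SERPINB6 by -0.14 (-0.36 to 0.084), each with limma adjusted p of 1. The fourth member without overlap was SERPINB9, at -0.097 (-0.45 to 0.26), with both TAp63 values below both mock values.

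With deltaNp63 in PANC-1, 0 of 5 members passed by limma (0.0406% of all tested genes did), 0 had an unadjusted p under 0.05 (2.34%), and 1 had groups that did not overlap (27.1%). That member was SERPINB1, at -0.16 (95% interval -0.56 to 0.25, limma adjusted p 1). SERPINB5 differed by 0.0097 (95% interval -0.27 to 0.29). TAp63 against deltaNp63 in PANC-1 likewise gave 0 of 5 by limma (0.0271% of all tested genes passed), 0 with an unadjusted p under 0.05 (2.96%) and 2 with groups that did not overlap (34%). Those were SERPINB5, higher with TAp63 by 0.25 (95% interval -0.035 to 0.52), and SERPINB6, at -0.12 (-0.35 to 0.10). SERPINB8 differed by -0.14 (95% interval -0.64 to 0.37).

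Whether a construct acted differently in the lines was tested as the PANC-1 difference minus the AsPC-1 difference, again at unequal mean TP63 levels. For TAp63, 0 of 5 members passed by limma (0.0745% of all tested genes did) and 1 had an unadjusted p under 0.05 (10.4%). That member was SERPINB5, at 0.62 (SE 0.177, 95% interval 0.22 to 1.01, limma p 0.00618 unadjusted and 0.347 adjusted): it was lower with TAp63 in both AsPC-1 replicates and higher in both PANC-1 replicates, the latter from a level near 0. With the pseudocount of 0.1 this difference was 1.73 (limma adjusted p 0.364). SERPINB8 had the opposite sign, at -0.61 (95% interval -1.32 to 0.10, limma adjusted p 0.527). For deltaNp63, 0 of 5 members passed by limma (0.582% of all tested genes did) and 0 had an unadjusted p under 0.05 (16.5%). SERPINB8 was at -0.70 (95% interval -1.41 to 0.017, limma adjusted p 0.315) and SERPINB1 at -0.55 (-1.13 to 0.020, limma adjusted p 0.319). Without AsPC-1 deltaNp63 replicate 2, both passed, at -1.02 (limma adjusted p 0.0405) and -0.89 (limma adjusted p 0.00892). Without replicate 1 they were at -0.37 and -0.21.

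SERPINB1 was the one expressed member with much of its signal on transcripts that have no defined coding sequence. Its coding transcript SERPINB1-201 held between 28.4% and 35.3% of the gene's TPM in the 6 AsPC-1 libraries and between 39.4% and 43.8% in the 6 PANC-1 libraries, and these ranges did not overlap. SERPINB1-205, without a defined coding sequence, held between 33.2% and 37.3% in AsPC-1 and between 27.2% and 41.0% in PANC-1. The coding transcript alone was at 73.9 ± 0.671 TPM (SD, n = 2) in AsPC-1 mock, 82.7 ± 15.8 TPM under TAp63 and 100.5 ± 39.1 TPM under deltaNp63. The deltaNp63 replicates were at 128 and 72.9 TPM, so the second lay at the mock level and only the library that stood apart lay above it. The PANC-1 means were 19.5 ± 1.82, 17.4 ± 1.52 and 17.7 ± 1.16 TPM. How the quantifier divided sequence shared by these transcripts is not given in the sources used here. For SERPINB6, SERPINB8 and SERPINB9 the table held 5 of 25, 6 of 9 and 1 of 1 of the GENCODE 44 transcripts, all of them coding. Their coding share could therefore only be 100% in all 12 libraries, and it cannot be set against that of SERPINB1.

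**Figure D4:**
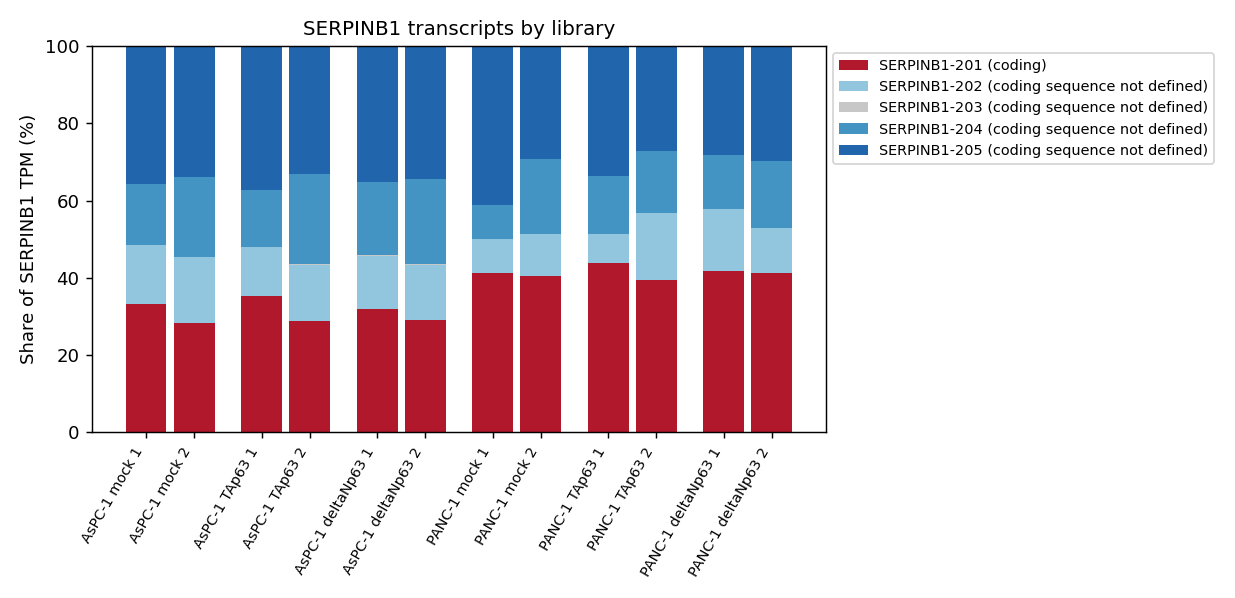
Share of SERPINB1 TPM on each of its 5 annotated transcripts (vertical axis, percent) in each of the 12 libraries. The coding transcript SERPINB1-201, in red at the base of each bar, holds 28.4% to 35.3% in AsPC-1 and 39.4% to 43.8% in PANC-1.

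Proteases that clade B serpins are known to inhibit gave 13 listed genes, of which 8 were tested. The granule proteases ELANE, CTSG, CMA1 and GZMB were each at or below 0.352 TPM in all 12 libraries. PRTN3, the granule protease proteinase 3, was at or below 0.11 TPM in AsPC-1 and between 0.899 and 2.04 TPM in PANC-1, and it was higher in PANC-1 mock than in AsPC-1 mock (1.19, limma adjusted p 0.000422). PLAU, the urokinase that SERPINB2 inhibits, was between 423 and 725 TPM in AsPC-1 libraries and between 563 and 662 TPM in PANC-1. With deltaNp63 in AsPC-1, 3 of 8 fell and 0 rose (6.51% of all tested genes fell and 0.637% rose), the list's median log2 difference being -0.12, the same as over all tested genes. CTSS, a lysosomal cysteine protease, went from 32.6 ± 0.402 to 22.8 ± 0.255 TPM (SD, n = 2; log2 difference -0.50, limma adjusted p 0.0231). CTSL, another cathepsin and a target of SERPINB3 and SERPINB13, went from 72.7 ± 8.13 to 52.6 ± 5.82 TPM (-0.46, limma adjusted p 0.041). FURIN, the target of SERPINB8, went from 24.9 ± 1.93 to 17.95 ± 0.527 TPM (-0.45, limma adjusted p 0.039). All 3 calls were close to the threshold. With each library centred on its median the differences of CTSS, CTSL and FURIN shrank to -0.29, -0.25 and -0.24 (limma adjusted p 0.0951, 0.212 and 0.171). A model of only the 6 AsPC-1 libraries left the differences as they were and lost the calls (limma adjusted p 0.202, 0.245 and 0.245). Without AsPC-1 deltaNp63 replicate 1 the differences were no smaller, at -0.51, -0.57 and -0.48, and the calls were lost (limma adjusted p 0.0801, 0.0737 and 0.132). Leaving out any 1 of the 4 mock libraries, of either line, or either PANC-1 TAp63 library also lost all 3 calls (limma adjusted p 0.0504 to 0.16), and the CTSL call was lost without each of the 12 libraries in turn. Without either PANC-1 deltaNp63 library FURIN was lost as well (0.0578 and 0.0579). Between the mock groups 3 of 8 proteases were higher and 3 lower in PANC-1 (44.6% and 27.9% of all tested genes). Among them were PLAT, the tissue plasminogen activator, at 133 ± 6.88 TPM in AsPC-1 but 0.329 ± 0.0579 TPM in PANC-1 (-6.65, limma adjusted p 1.14e-10), and KLK8, at 49.5 ± 7.02 TPM in AsPC-1 and listed at 0 in PANC-1.

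Serpins of other clades gave 21 listed genes, of which 10 were tested. None passed for a construct in either line by limma (0.00677% to 7.14% of all tested genes did). At an unadjusted p under 0.05 there were 0 to 2 in each comparison (2.34% to 29.7% of all tested genes). Between the mock groups 5 were higher and 4 lower in PANC-1 (44.6% and 27.9% of all tested genes). SERPINE2, the secreted protease nexin, was at 899 ± 41.1 TPM in AsPC-1 but 2.09 ± 0.0454 TPM in PANC-1 (-8.19, limma adjusted p 8.95e-12). SERPINA1, the elastase inhibitor alpha-1-antitrypsin, was higher in PANC-1, at 8.08 ± 0.339 TPM against 1.08 ± 0.224 TPM (2.13, limma adjusted p 5.55e-07).

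SERPINB3, SERPINB4, SERPINB7 and SERPINB13 are made in skin together with epidermal differentiation genes, and 7 of 20 such genes were tested. With deltaNp63 in AsPC-1, 1 rose and 1 fell (0.637% of all tested genes rose and 6.51% fell). SFN, an epithelial 14-3-3 protein, went from 449 ± 82.6 to 637 ± 74.5 TPM (log2 difference 0.51, limma adjusted p 0.0432), and EVPL, the cornified envelope protein envoplakin, from 6.32 ± 0.482 to 3.27 ± 1.01 TPM (-0.80, limma adjusted p 0.0334). Without AsPC-1 deltaNp63 replicate 1 they were at 0.39 and -0.55, and both calls were lost (limma adjusted p 0.228 and 0.153). Both were also lost in the model of only the 6 AsPC-1 libraries (0.256 and 0.245), without AsPC-1 mock replicate 1 (0.193 and 0.162, SFN then at 0.32) and without any 1 of the 4 PANC-1 mock and TAp63 libraries (0.0743 to 0.0795 for SFN and 0.0644 to 0.0682 for EVPL). SFN was also lost without either PANC-1 deltaNp63 library (0.0662). Without AsPC-1 mock replicate 2 (0.0976) and with centring on the median (0.0561) only the EVPL call was lost. In the other construct comparisons 0 genes of this list passed by limma (0.00677% to 0.637% of all tested genes did). At an unadjusted p under 0.05 there were 0 to 3 (2.34% to 16.5% of all tested genes). Of the 7 tested genes, 4 were lower and 2 higher in PANC-1 mock than in AsPC-1 mock (27.9% and 44.6% of all tested genes). DSG3, a desmosomal cadherin of squamous epithelium, was at 33.8 ± 0.431 TPM in AsPC-1 mock and 0.0109 ± 0.00425 TPM in PANC-1 mock (-5.11, limma adjusted p 8.66e-11). KRT16 was at 16.7 ± 0.472 and 0.358 ± 0.0581 TPM (-3.70, limma adjusted p 1.01e-06). PPL ran the other way, at 4.67 ± 0.432 TPM in AsPC-1 mock and 24.6 ± 4.54 TPM in PANC-1 mock.

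Genes that flank the serpin clusters gave 8 listed genes, of which 6 were tested. None passed for a construct by limma (0.00677% to 7.14% of all tested genes did). At an unadjusted p under 0.05 there were 0 to 2 in each comparison (2.34% to 29.7% of all tested genes). Between the mock groups 3 were higher and 1 lower in PANC-1 (44.6% and 27.9% of all tested genes). HMSD, the neighbour that overlaps SERPINB8, was at 9.75 ± 1.58 TPM (SD, n = 2) in PANC-1 mock, 4.82 ± 1.15 TPM under TAp63 and 5.51 ± 0.0805 TPM under deltaNp63. Its differences from PANC-1 mock, -0.89 with TAp63 and -0.71 with deltaNp63, did not pass (limma adjusted p 0.398 and 0.782). VPS4B, next to SERPINB5 in the chromosome 18 region, was between 20.8 and 30.8 TPM in AsPC-1 and between 23.4 and 28.9 TPM in PANC-1, ranges that overlapped, unlike those of SERPINB5.

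The genes most like SERPINB5 were sought among 10220 genes with a mean of at least 5 TPM, by Pearson's r of log2(TPM + 1) over the 12 libraries after the mean of each line was subtracted. The closest were MYCBP2 (0.886), PET117 (0.85), ICAM2 (0.839) and TMEM187 (0.828). These values describe 12 libraries that share their constructs and replicate differences. The 6 PANC-1 libraries entered with SERPINB5 below 1 TPM, and PANC-1 TAp63 replicate 2, at 0.348 TPM, weighed heavily among them. Over the 6 AsPC-1 libraries alone r was 0.973 for MYCBP2, 0.896 for PET117, 0.925 for ICAM2 and 0.799 for TMEM187. The 4 genes were picked as the highest of 10220 over libraries that include these 6, so high values here follow in part from the choice. ICAM2 alone among them was also far lower in PANC-1, with a mean of 0.346 TPM over its 6 libraries against 29.4 TPM in AsPC-1.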

How the data were processed

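Poly(A) RNA-seq libraries of AsPC-1 and PANC-1 cells were used, 12 samples in 6 groups of 2 biological replicates. Per the labels' protocols, RNA was column-extracted and libraries came from a stranded mRNA kit. TPM values for 153329 transcripts, as deposited by the authors, were the starting point, and each sample column sums to 1000000. The quantifier, genome build and annotation are not given in the sources used here, nor is read depth. Transcripts were paired with genes through GENCODE 44 (139819 rows, 91.2%, holding 89.6% to 90.5% of the TPM of a library) and summed to 39099 genes. PECAM1 was not analysed here.

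Genes at 1 TPM or more in 2 or more libraries (14767) were tested on log2(TPM + 1) with limma 3.58.1 in R 4.3.3 (package data.table, version 1.17.8): a mean per group, eBayes with trend, 9 contrasts, two-sided p-values adjusted by Benjamini-Hochberg over all tested genes in a contrast, threshold 0.05. All groups shared 1 estimate of spread per gene, with 6 residual degrees of freedom. Tables and sequences were handled with pandas 2.3.3 and edlib, promoter sequences being those of RefSeq on GRCh38.p14, where all 10 members matched by symbol. The script was checked on simulated data. With 2 replicates a group, no exact permutation test could pass the threshold.

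The alternatives were a pseudocount of 0.1, no low-value filter, median centring, quantile normalization, limma without trend, only the 6 libraries of a line, a replicate block and leaving out each library. The members and lists were chosen with earlier results of these data known. All members were named, up to 4 passing genes of a list and contrast by size of change, otherwise up to 2 by level, and the 4 genes most like SERPINB5. ELANE, CTSG, CMA1 and GZMB, the group values of HMSD for each construct, and VPS4B were named after their values were seen. A result for 1 gene of the list of other serpin clades is not reported here.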

Additional observations from a re-analysis of the deposited data

How the results depend on the processing

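The count of members that passed was 0 in all 8 construct comparisons and 5 between the mock groups under a pseudocount of 0.1, no low-value filter, quantile normalization, limma without trend and, for the comparisons it allows, only the 6 libraries of a line. Median centring left the 0 counts as they were and gave 4 between the mock groups. Leaving out 1 library at a time gave 0 to 2 members for AsPC-1 deltaNp63 against mock, 0 to 1 for AsPC-1 TAp63 against deltaNp63, 0 to 2 for the difference between lines in the deltaNp63 effect, and 4 to 5 between the mock groups. Each higher count among the constructs came from leaving out AsPC-1 deltaNp63 replicate 2.

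Among the differences followed through the alternatives, signs turned only for members that had not passed. Some small differences were not followed, such as those of SERPINB6, SERPINB8 and SERPINB9 with deltaNp63 in PANC-1, so the turns given here are not a full list. For AsPC-1 TAp63 against mock, median centring gave 0.069 for SERPINB6 and 0.10 for SERPINB9, and quantile normalization gave 0.046 for SERPINB9. For AsPC-1 deltaNp63 against mock, median centring gave 0.0084 for SERPINB5 and 0.17 for SERPINB6, and quantile normalization gave 0.024 for SERPINB6. Leaving out 1 library at a time, values for AsPC-1 TAp63 against mock ran from -0.0077 to 0.20 for SERPINB1, from -0.15 to 0.026 for SERPINB6 and from -0.16 to 0.098 for SERPINB9. For AsPC-1 deltaNp63 against mock they ran from -0.14 to 0.061 for SERPINB6 and from -0.16 to 0.22 for SERPINB9. For TAp63 against deltaNp63 they ran from -0.64 to 0.039 for SERPINB1 and from -0.55 to 0.10 for SERPINB8 in AsPC-1, and from -0.32 to 0.043 for SERPINB8 in PANC-1. SERPINB5 in PANC-1 with deltaNp63 ran from -0.013 to 0.033. The cause was not tested.

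Deviations of same-numbered libraries correlated across genes between -0.094 and 0.293, the highest for AsPC-1 TAp63 against deltaNp63. Such values cannot settle whether the replicate numbers pair the libraries. With the replicate number as a block, 0 members passed in each construct comparison and 5 between the mock groups. SERPINB8 in AsPC-1 with deltaNp63 then had limma adjusted p 0.0998 and SERPINB5 with TAp63 0.205. Depth limits are unknown, since TPM keeps no counts, so values near 0 carry no detection limit.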
